A study of Mus musculus with 2 samples.

Results

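The distal end of the imprinted Dlk1-Meg3 domain on mouse chromosome 12 carries a dense run of microRNA genes, from Mir379 to Mir3072. The genes were chosen by position alone: all microRNA genes of the GENCODE M21 annotation, on either strand, from the start of Mir379 to the end of Mir3072 (mm10, chromosome 12, 109709060 to 109747960). This 38.9 kb stretch holds 44 of the 2202 microRNA genes in the count tables, 39 on the plus strand and 5 on the minus strand. Of the 44, 33 reached a mean of 10 CPM (reads of a gene scaled to a library total of 1e6 counts on microRNA genes), 6 had fewer reads and 5 had 0 reads in both libraries.

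Small RNA shorter than 30 nt was sequenced from gastrocnemius, the superficial calf muscle, of female B6CASTF1/J mice aged 14 days. These mice are hybrids from crossing C57BL/6J with CAST/EiJ. There was 1 group with 2 biological replicates, no treatment and no second genotype. For replicate 1 the biosample is named as from 3 females and for replicate 2 as from 1 female, and both carry a single donor identifier, so the spread between them may be technical. Whole muscle was used, so fewer cells of a type and less RNA per cell cannot be told apart.

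The microRNAs of this domain are processed from long noncoding transcripts (Meg3, Rian, Mirg) that are made from the maternal chromosome, while the paternal chromosome makes the protein-coding genes Dlk1, Rtl1 and Dio3. The distal run is found in placental mammals and is best known from brain, where Mef2 factors induce it and miR-134 restrains dendritic spine growth. In skeletal muscle the domain is known from the callipyge sheep, whose hindquarter muscle overgrowth maps to it, and from regenerating mouse muscle, where MEF2A activates its microRNAs. A mature microRNA pairs with its targets mainly through its seed, bases 2 to 8 from the 5′ end.

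Mature sequences from RefSeq (GRCm38.p6) matched 39 of the 44 genes and gave 73 arms. For Mir487b, Mir376c, Mir539, Mir485 and Mir453 only 1 arm was held, so seeds of their missing arms are not covered below. Of Mir381 only the 3p arm is listed here. The arms of the most abundant genes are shown first, 5′ to 3′, with the seed in capitals, because the counts below turn on them. A gene's count pools reads of both arms, so which arm was sequenced cannot be read from these data.
miR-379-5p: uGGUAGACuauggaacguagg
miR-379-3p: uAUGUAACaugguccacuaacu
miR-411-5p: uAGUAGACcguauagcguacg
miR-411-3p: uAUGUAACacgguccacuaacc
miR-487b-5p: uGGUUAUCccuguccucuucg
miR-541-5p: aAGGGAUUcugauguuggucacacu
miR-541-3p: uGGCGAACacagaauccauacu
miR-299a-5p: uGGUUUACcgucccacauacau
miR-299a-3p: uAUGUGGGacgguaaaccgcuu
miR-382-5p: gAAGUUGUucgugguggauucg
miR-382-3p: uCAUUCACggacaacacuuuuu
miR-381-3p: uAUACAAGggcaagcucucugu

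Mir379 and Mir411, neighbours 1049 bp apart, are related along both arms. Their 3p arms are identical at 20 of 22 positions and share the seed AUGUAAC. Their 5p arms are identical at 14 of 21 positions and differ in the seed by G2A, counted from the 5′ end with miR-379-5p first. The hairpins are shown with both mature arms in capitals.
Mir379: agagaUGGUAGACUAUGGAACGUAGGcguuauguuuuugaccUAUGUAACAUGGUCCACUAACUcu
Mir411: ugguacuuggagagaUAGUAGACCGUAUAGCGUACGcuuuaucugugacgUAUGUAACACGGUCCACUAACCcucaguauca

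The run was one of the large sources of the reads that were assigned to a microRNA gene in these libraries. Its 44 genes, which make up a small part of the annotation, held 9.69% of all counts on microRNA genes in replicate 1 (95% exact binomial interval 9.66 to 9.73) and 11.2% in replicate 2 (11.17 to 11.23), a mean of 10.4% ± 1.07 (SD, n = 2). Of the 44, 37 were expressed, meaning 1 CPM or more in both replicates. Over all 2202 genes that share was 16.7%. A mean of 100 CPM or more was reached by 32 of the 44, against 7.99% of all genes, and 18 stood among the 100 most abundant genes of the table. The intervals cover counting error only. Shares and ranks leave out reads aligned to several places, 52.7% and 52.4% of reads in replicates 1 and 2. Whether this raised the run's share was not tested.

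The 22 microRNA genes that lie up to 200 kb upstream, in the same domain, held nearly the same share, 9.71% (replicate 1) and 11.01% (replicate 2). Their counts came from fewer genes. Mir127, which lies antisense to the retrotransposon-derived gene Rtl1, stood at 62984 and 70728 CPM in the replicates, given here and below with replicate 1 first. Mir431 had 10238 and 12510 CPM, and Mir434 had 7569 and 8373 CPM. Both stretches together held 20.8% ± 1.99 of counts.

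The libraries held 2672454 (replicate 1) and 4292012 (replicate 2) counts on microRNA genes, so 1 read was worth 0.374 and 0.233 CPM. Reads aligned to several places, 52.7% and 52.4% of reads, entered no gene. Of the 9 skeletal muscle markers 8 were expressed, with Mir206 at 95105 and 84694 CPM. The rest were far lower: Mir486 had 643 and 538 CPM, Mir1a-2 245 and 170, Mir499 213 and 280, and Mir208b 81.6 and 149. Mir133b had 25.4 and 31.0 CPM, Mir1a-1 7.86 and 8.62, Mir133a-1 3.37 and 2.80, and Mir133a-2 0.748 and 2.10. Whether reads aligned to several places lowered these counts was not tested. Among markers of other cells, the summed neural list (10 genes) was at 409 CPM in replicate 1 and 687 CPM in replicate 2, with 4 genes expressed and Mir124a-1, Mir124a-2, Mir124a-3, Mir9-1 and Mir9-2 at 0 reads in both. The erythroid pair Mir451a and Mir144 summed to 437 and 185 CPM, the hepatocyte gene Mir122 had 229 and 14.2 CPM, and 4 leukocyte genes summed to 1185 and 853 CPM. Mir126a of endothelium had 118724 and 119268 CPM, and Mir143 with Mir145a summed to 20228 and 20871 CPM.

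Mean levels of the 37 expressed genes ran from 1.75 CPM (Mir758) to 33509 CPM (Mir411), and 3 genes held most of the counts. Mir411, Mir379 and Mir487b together held 58.3% of the run's counts in replicate 1 and 62.0% in replicate 2. The 10 most abundant genes held 90.6% ± 0.310, and the 12 most abundant 92.4% ± 0.286. The first 8 genes stood in the same order in both replicates: Mir411, Mir379, Mir487b, Mir541, Mir299a, Mir382, Mir381 and Mir154. A microRNA read spans the mature strand, so levels were not divided by gene length. Adapters join some microRNA ends better than others, and the part of this in the order of the genes was not tested.

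**Figure D1:**
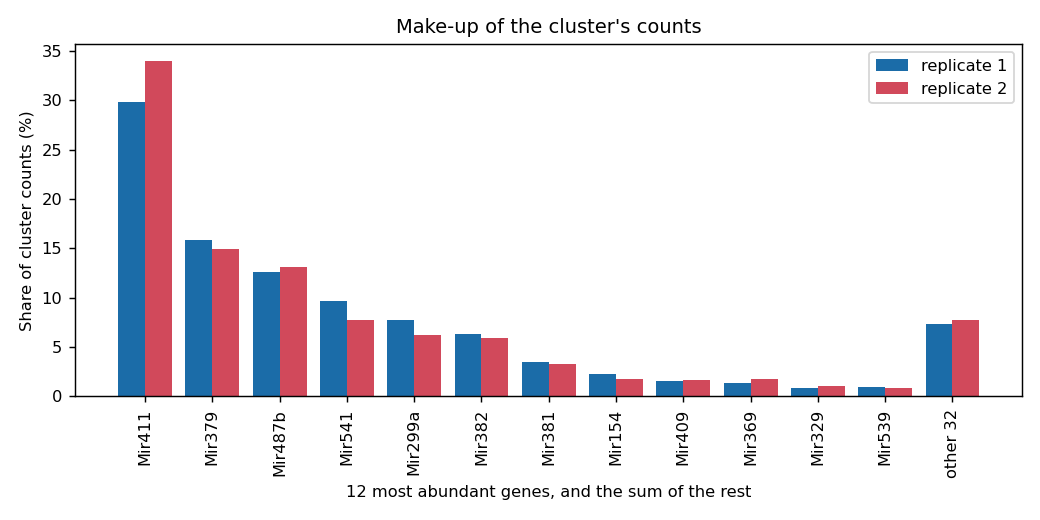
Share of the run's counts (%) held by each of its 12 most abundant genes and by the other 32 together, with 1 bar for each replicate. Mir411 takes 29.8% in replicate 1 and 34.0% in replicate 2, and the order of the first 8 genes is the same in both.

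Mir411 (chromosome 12, 109710175 to 109710256) was the most abundant, at 28924 CPM in replicate 1 and 38093 CPM in replicate 2, eighth among all 2202 genes by mean level. It stood above every other member in both replicates. Mir379 (109709060 to 109709125), the first gene of the run, had 15317 and 16711 CPM, and the difference was small beside its distance from Mir411. Mir487b (109727333 to 109727414), 18 kb downstream, had 12246 and 14652 CPM.

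Mir541 (109742409 to 109742498) stood at 9415 and 8698 CPM. Mir299a (109710638 to 109710700), 381 bp after Mir411, had 7531 and 6948 CPM. Mir382 (109733771 to 109733846) had 6157 and 6633 CPM. In replicate 2 the last pair lay closer together than Mir299a lay to itself across the replicates, so their order rests on a small margin there.

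Mir381 (109726822 to 109726896) had 3390 and 3713 CPM. Mir154 (109738433 to 109738498), which gives its name to a family of related hairpins in this domain, had 2211 and 1994 CPM. These were followed by Mir409 (109743158 to 109743236) at 1487 and 1888 CPM and Mir369 (109743418 to 109743496) at 1335 and 1937 CPM. Mir409 was the higher of the pair in replicate 1 and Mir369 in replicate 2, so their order did not hold across replicates.

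Mir329, whose microRNA acts with miR-134 and miR-381 in the growth of dendrites, had 840 and 1134 CPM. Mir539 had 925 and 945 CPM. The other 20 genes that averaged at least 100 CPM ran from 127 CPM for Mir410 to 839 CPM for Mir376c. Among them were Mir134, the dendritic microRNA, at 437 and 596 CPM, and Mir485 at 686 and 855 CPM. Mir494, reported to target mitochondrial regulators in myoblasts, had 315 and 340 CPM. Mir3072, the last gene, stood alone below these at 53.5 and 56.6 CPM.

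A second group of genes lay far below, with no gene between a mean of 5.37 and 55.1 CPM. Mir544 had 15 and 22 reads (5.61 and 5.13 CPM), and Gm27379 had 7 and 14 reads (2.62 and 3.26 CPM). Mir758 had 5 and 7 reads (1.87 and 1.63 CPM), the member just above the limit of 1 CPM. Just below it, Mir1197 had 4 and 2 reads (mean 0.981 CPM), and Mir453 had 0 and 2 reads. Mir544 had the most reads of these genes in both replicates. For each of the 5 genes, the interval of the ratio between replicates included 1.

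Mir654 was the only plus-strand gene with 0 reads in both replicates, which allows up to 1.12 CPM in replicate 1 and 0.699 CPM in replicate 2. It lies (109723218 to 109723301) 414 bp after Mir376c and 156 bp before Mir376b, which had 839 ± 174 and 142 ± 5.23 CPM. The longest stretch that its hairpin shares with a microRNA hairpin elsewhere is 12 nt. The hairpin, with both arms in capitals, is shown because its neighbours were counted and it was not.
Mir654: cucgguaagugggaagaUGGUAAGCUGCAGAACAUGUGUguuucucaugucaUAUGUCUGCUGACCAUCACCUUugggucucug

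**Figure D2:**
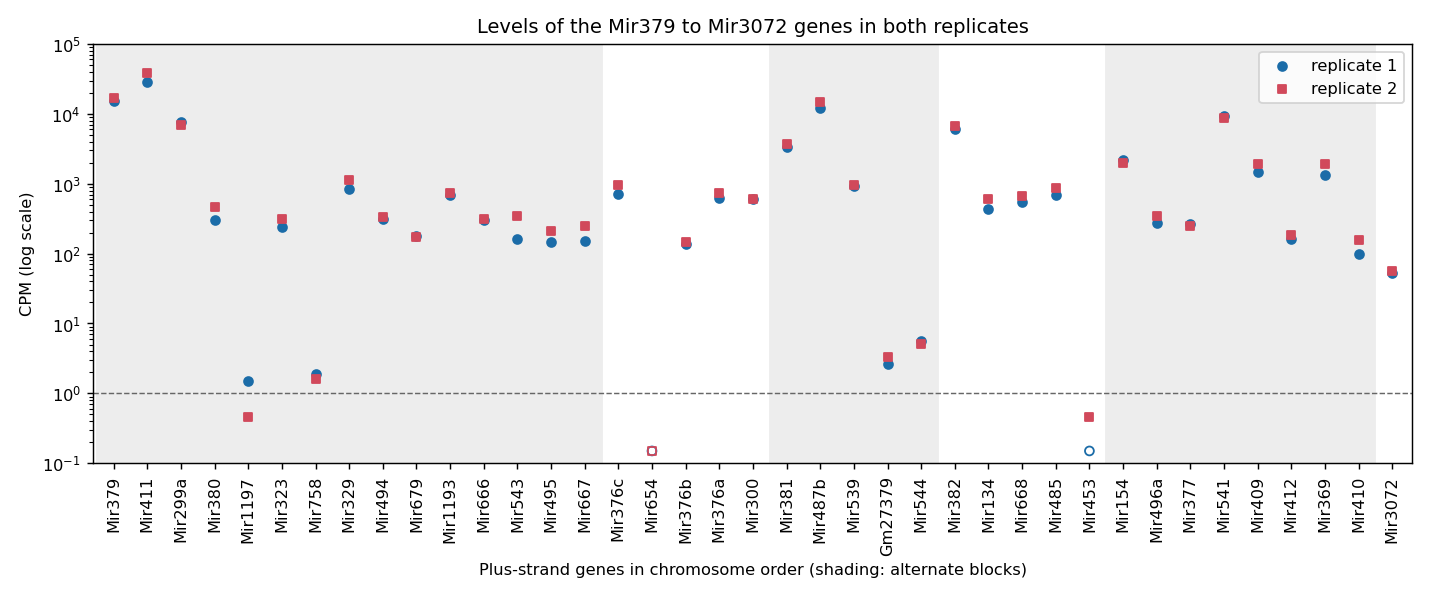
Level of each of the 39 plus-strand genes in CPM (log axis) in chromosome order, with circles for replicate 1 and squares for replicate 2; open symbols at the bottom mark 0 reads, the dashed line marks 1 CPM, and shading separates alternate blocks. Mir379, Mir411 and Mir299a stand high at the left end, Mir487b in the third block and Mir541 in the fifth, while Mir654 has 0 reads between counted neighbours.

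Along the chromosome the hairpins fell into 6 blocks when split at gaps of over 2 kb. The first block, Mir379 to Mir667 (15 genes in 11038 bp), held 57.9% of the run's counts, 55122 CPM in replicate 1 and 66023 CPM in replicate 2. Within it the first 3 genes carried most of the level, and the 10 other genes at 10 CPM or more had means from 176 CPM (Mir679) to 987 CPM (Mir329). The second block, Mir376c to Mir300 (5 genes), summed to 2075 and 2448 CPM, and the third, Mir381 to Mir544 (5 genes), to 16569 and 19319 CPM, most of it from Mir487b. The fourth, Mir382 to Mir453 (5 genes), had 7834 and 8742 CPM. The fifth, Mir154 to Mir410 (8 genes), had 15248 and 15448 CPM, and Mir3072 stood by itself, 4082 bp on.

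The 14 genes from Mir382 to Mir3072 lie inside Mirg, the long noncoding host gene of this end (plus strand, 109729764 to 109749460). Of these, 9 overlapped an annotated Mirg exon, Mir382, Mir134, Mir668, Mir485, Mir377, Mir412, Mir369, Mir410 and Mir3072, and 5 lay in introns, Mir453, Mir154, Mir496a, Mir541 and Mir409. Both kinds held abundant genes. The 14 summed to 23136 and 24246 CPM. The 25 plus-strand genes upstream of Mirg overlapped no other annotated gene on their strand and summed to 73766 and 87791 CPM.

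Several hairpins that lie side by side differed widely in level. Mir409, Mir412 and Mir369 are separated by 52 and 49 bp, yet Mir409 was 9.08-fold and 10.3-fold above Mir412 (164 and 183 CPM) in replicates 1 and 2, and Mir369 was 8.14-fold and 10.6-fold above it. Mir1193 starts 20 bp after Mir679 and stood at 696 and 726 CPM, against 181 and 172 CPM for Mir679. Mir323 (242 and 312 CPM) lies 71 bp after Mir1197, which had 4 and 2 reads. Each of these gaps was far larger than the difference between replicates. An exception among close neighbours was Mir666 with Mir543, 74 bp apart. The level of Mir666 over that of Mir543 was 1.90 in replicate 1 and 0.893 in replicate 2. Across the 32 pairs of neighbouring genes at 10 CPM or more, log2 levels had a Pearson's r of 0.41 and a Spearman's rho of 0.26, a description of points that share libraries and a transcript.

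Of the hairpin's own features, none ordered the levels closely. Across the 33 genes at 10 CPM or more, Spearman's rho with log2 mean CPM was -0.22 for GC content, -0.11 for hairpin length and 0.15 for predicted folding energy. GC content ran from 29.1% (Mir376c) to 72.3% (Mir3072) over the plus-strand genes. Some hairpins share short strings: the letters GGUACUU, found in Mir411, Mir323, Mir487b, Mir453, Mir369 and Mir410, occurred in 13.6% of the run's 44 annotated hairpins and in 0.817% of all 2202 (own or reverse strand). The letters CAGUAUC occurred in 15.9% of the 44 and 1.04% of all. Another string, UAUUUAUG, was in 6.82% of the 44 and 0.545% of all. Their letters let no pair of these strings overlap by more than 1 base. The strings were picked after the hairpins were seen, so the shares are descriptions. Of the 73 mature arms, 42.5% began with U and 37.0% with A, and over all 1738 arms in the RefSeq table the shares were 41.3% and 25.5%.

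The 73 arms carried 66 different seeds, 7 of them shared by a pair of genes in the run. The pairs that matter for the counts are shown with the seed in capitals.
miR-1193-5p: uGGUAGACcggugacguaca
miR-376b-5p: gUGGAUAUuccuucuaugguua
miR-376c-5p: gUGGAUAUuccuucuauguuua
miR-494-5p: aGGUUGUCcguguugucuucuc
miR-410-5p: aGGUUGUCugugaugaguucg
miR-376b-3p: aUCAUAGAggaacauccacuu
miR-376a-3p: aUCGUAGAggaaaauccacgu
miR-300-3p: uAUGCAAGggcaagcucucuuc

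The seed AUGUAAC, on the 3p arms of Mir379 and Mir411, belonged to the pair with the highest summed level, 44241 CPM in replicate 1 and 54804 CPM in replicate 2. The seed GGUAGAC of miR-379-5p recurs in miR-1193-5p, 6545 bp downstream. This pair summed to 16012 and 17437 CPM, and Mir379 was 22.02-fold and 23.03-fold above Mir1193. The seed of miR-411-5p, AGUAGAC, had no second copy in the run, and outside it only Mir7229 carried it, with 0 reads. Because arms are pooled, these sums are the most that a seed could hold by these counts, not a measure of it.

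The Mir376 genes, known for A-to-I editing of their seeds in brain, had 715 and 962 CPM (Mir376c), 626 and 729 CPM (Mir376a) and 138 and 146 CPM (Mir376b). Mir376b was lowest in both replicates. Its 3p seed differs from that of miR-376a-3p by A4G. The 5p arms of Mir376b and Mir376c are identical over their first 18 bases and share the seed UGGAUAU. Their hairpins have a stretch of 31 nt in common, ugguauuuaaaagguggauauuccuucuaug, so a shortened 5p read fits both places and could be counted for neither. Editing itself cannot be read from gene counts.

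Mir381 and Mir300, 2430 bp apart, are close relatives with different seeds: their 3p arms agree at 19 of 22 positions, and the seed differs by A4G with miR-381-3p first. Mir381 was 5.70-fold and 6.07-fold above Mir300 (595 and 612 CPM), with ranges far apart. Mir494 and Mir410 share the 5p seed GGUUGUC and summed to 415 and 495 CPM. In the pair with the seed GGUUGCC, Mir496a had 271 and 347 CPM beside 0 and 2 reads of Mir453. Mir1197 with Mir758 (GGUUGAC) summed to 3.37 and 2.10 CPM, and the last pair, Mir299a with Mir299b (AUGUGGG), is a single hairpin site read on both strands.

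Few genes outside the run carried the same seeds and had reads. The seed ACACACC of miR-329-3p is also that of Mir362 on another chromosome, which stood at 97.7 and 75.02 CPM against 840 and 1134 CPM for Mir329. The seed AGGUCAC of miR-1193-3p recurs in Mir370, a gene of the upstream part of the domain, at 123 and 133 CPM. Mir1983 shares the seed of miR-412-3p at 60.2 and 72.2 CPM, and Mir672 that of miR-377-5p at 23.9 and 28.0 CPM. The seed AACAAAC of miR-495-3p was on 1 counted gene outside the run, at 0 and 0.466 CPM.

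Stretches shared with a hairpin at another place bear on 5 of the 39 plus-strand genes at the limit of 18 nt. At this length a read may fit 2 places. Mir411 and Mir758 share 21 nt, gguccacuaacccucaguauc, which covers the end of miR-411-3p. Mir487b and Mir376b share 20 nt, cauccacuuuuucaguauca. Reads aligned to several places entered no gene, so counts of Mir411, Mir487b, Mir376b, Mir376c and Mir758 may miss such reads, although no mature arm of RefSeq occurs whole in the hairpin of a microRNA gene elsewhere. The other 34 plus-strand genes shared at most 16 nt with a microRNA hairpin at another place. Of these, Mir299a holds a 21 nt stretch that recurs on its own reverse strand. Its count may miss reads in the same way. The rest of the genome was not searched.

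On the minus strand, 5 annotated genes mirror plus-strand hairpins: Mir299b opposite Mir299a, Gm25750 opposite Mir380, Gm25252 opposite Mir376a, Gm44322 opposite Mir539 and Gm24321 opposite Mir409. The 4 genes with Gm names had 0 reads in both replicates, so up to 1.12 and 0.699 CPM, while their plus-strand partners stood between 307 and 1888 CPM. Mir299b had 8 and 17 reads (2.99 and 3.96 CPM), which is 2516-fold and 1754-fold below Mir299a. Over the 34 genes with no annotated partner, reads on the opposite strand numbered 0 in both replicates.

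The Mir299a hairpin is close to a perfect inverted repeat. Its longest stretch that also occurs on the opposite strand is 21 nt, gguuuaccgucccacauacau. A read within it fits a position on each strand, and these positions differ. Reads aligned to several places entered no gene, so counts of Mir299a and Mir299b may miss such reads. The hairpins are shown with their mature arms in capitals.
Mir299a: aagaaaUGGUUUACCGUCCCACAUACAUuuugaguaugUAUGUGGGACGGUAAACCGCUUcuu
Mir299b: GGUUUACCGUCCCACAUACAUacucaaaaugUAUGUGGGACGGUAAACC

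The replicates were then set side by side. With 1 library on each side, ratios compare these libraries and have no test, and the intervals given are 95% counting intervals. Most members were a little higher in replicate 2. Of the 33 genes that averaged at least 10 CPM, 28 (84.8%) were higher there and 5 lower, whereas 53.8% of the 260 microRNA genes at that level were higher. The log2 ratio, replicate 2 over replicate 1, had a median of 0.22 over the members and 0.04 over all 260 genes. The shift was not particular to the run. Its summed counts were 1.156-fold higher (1.151 to 1.162) in replicate 2, and those of the 22 upstream genes of the domain 1.133-fold (1.128 to 1.139). The members lie in one stretch of one domain and are not independent of each other. Some marker lists of other cells differed between the replicates too. The summed neural list was 1.68-fold higher (1.57 to 1.80) in replicate 2, most of it from Mir338 (385 and 632 CPM), with Mir137 at 17.2 and 48.9 CPM, Mir218-2 at 5.61 and 3.96 CPM and 5 of the 10 genes at 0 reads. In replicate 2 hepatocyte Mir122 was 16.1-fold lower, the erythroid pair 2.36-fold lower and the leukocyte list 1.39-fold lower. Of the 4 leukocyte genes Mir223 was slightly higher, at 120 and 124 CPM. The summed skeletal muscle list was 1.12-fold lower, though 5 of its 9 genes were higher. Endothelial Mir126a (1.00-fold) and Mir143 with Mir145a (1.03-fold) differed little. The part of these lists in the members' ratios was not tested.

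Counting intervals lay above 1 for 20 of the 33 members (background 33.1%) and below 1 for 3 (background 25.8%). The 3 were Mir154, Mir299a and Mir541, at 1.11-fold (1.07 to 1.15), 1.08-fold (1.06 to 1.10) and 1.08-fold (1.07 to 1.10) in favour of replicate 1. Mir377 (266 and 245 CPM) and Mir679 (181 and 172 CPM) were also lower in replicate 2, with intervals that include 1. These differences were no larger than the typical distance between replicates, which over the 227 genes outside the run at 10 CPM or more had a median of 1.13-fold either way.

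The members farthest apart were all higher in replicate 2. Mir543 stood at 161 and 349 CPM, 2.17-fold apart (1.95 to 2.42). Mir667 had 153 and 250 CPM, 1.63-fold (1.45 to 1.83). Both lay above the central 95% of log2 ratios over the 144 genes outside the run at 100 CPM or more (-0.67 to 0.64), and no member lay below it.

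Mir410, tied in regenerating muscle to Wnt signalling, had 99.9 and 155 CPM, 1.55-fold (1.34 to 1.79). Mir380 had 307 and 467 CPM, 1.52-fold (1.40 to 1.65), and Mir369 stood 1.45-fold (1.40 to 1.51) higher. Over 1.5-fold apart were thus 4 of 33 members, all higher in replicate 2. Of the 260 genes, 8.46% were that far higher and 2.31% that far lower, 10.8% in all. The members' count of 4 is near this background, which pools both directions. At a mean of 100 CPM or more, 9 of 176 genes were that far higher and 5 that far lower. Of the members at that level, 4 of 32 were, all higher. Mir666, which ends 74 bp before Mir543, differed little, with 304 and 311 CPM. The higher of these neighbours was Mir666 in replicate 1 and Mir543 in replicate 2.

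**Figure D3:**
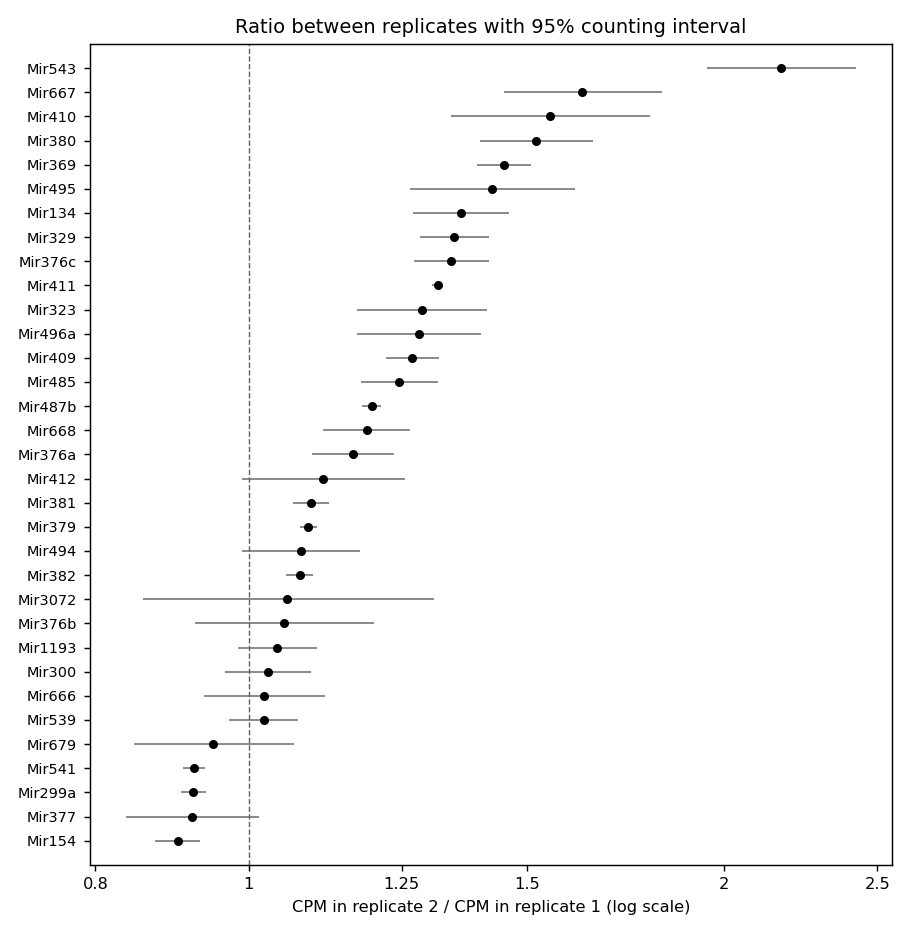
Ratio of CPM in replicate 2 over replicate 1 (log axis) for the 33 members averaging at least 10 CPM, with 95% counting intervals as bars and a dashed line at 1. Mir543 stands apart at 2.17, and 5 members lie to the left of the line.

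**Figure D4:**
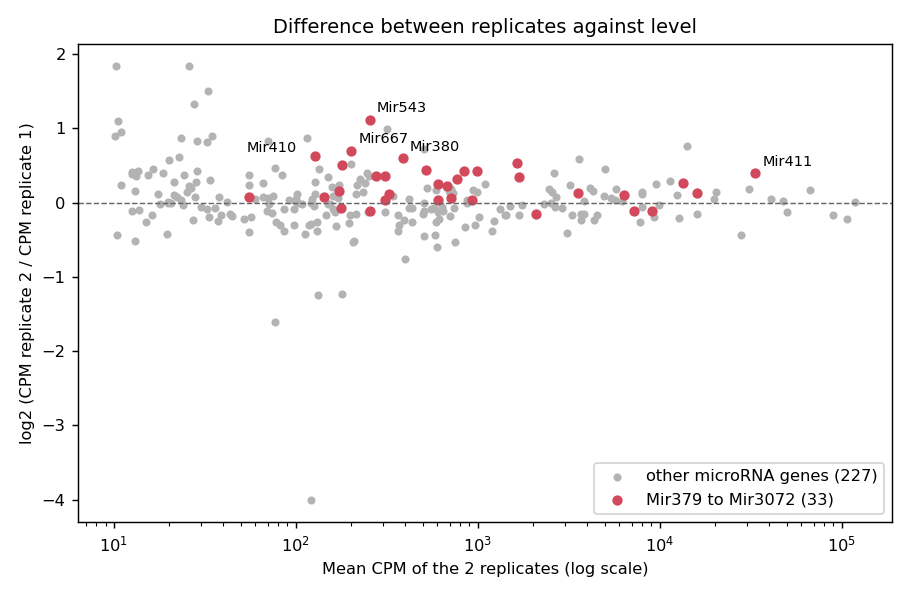
log2 ratio of replicate 2 over replicate 1 against mean CPM (log axis) for all 260 microRNA genes at 10 CPM or more, with the 33 members in red. Members lie mostly above 0, at a median of 0.22, with Mir543 highest among them at 1.12, and some of the 227 other genes (grey) lie farther from 0 than any member.

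In absolute share, the distance between the replicates came mainly from the leading genes. The run's share was 1.51 percentage points higher in replicate 2, of which Mir411 gave 0.917 points (60.6%). The 3 most abundant genes gave 85.7% of it. Without Mir411 the other 43 genes held 6.80% and 7.39% of counts, and without the leading 3 genes the other 41 held 4.04% and 4.26%. By block, the ratio of replicate 2 over replicate 1 was 1.20 (1.19 to 1.21) from Mir379 to Mir667 and 1.01 (1.00 to 1.03) from Mir154 to Mir410. Yet 5 of the 8 genes of the latter block were higher in replicate 2, and its sum was held level by Mir541 and Mir154. Across the 33 members, log2 ratios showed little order along the chromosome, with a Spearman's rho of -0.06 against distance from Mir379.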

How the data were processed

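Gastrocnemius small RNA was measured in 2 libraries of 1 group. The deposited files hold raw read counts per microRNA gene, made by the authors on mm10 with GENCODE M21, per the deposited text that accompanies them. No aligner, counter, trimming step or filter is given in the sources used here. Each file has 3 count columns, taken from their summary lines as unstranded, same strand and opposite strand, and the same-strand column was used. The 4 lines that name no gene held 66.6% (replicate 1) and 64.6% (replicate 2) of reads and stayed out of totals.

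Counts were divided by the total over the 2202 genes to give CPM. All gene identifiers matched GENCODE M21, which gave symbols, positions, exons and hairpins. Mature sequences came from RefSeq. A gene was expressed at 1 CPM in both replicates, and ratios were taken at a mean of 10 CPM or more. A count of 0 was read as up to 3 reads. Intervals are exact (Clopper-Pearson) at 95%, and no molecular identifiers are named. No test between groups was possible. The ratio code was tested on simulated counts.

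Every member is accounted for. Values were given for the 12 most abundant, the 5 farthest apart in each direction at a mean of 100 CPM or more, members of shared seeds, those at 0 reads and those near 1 CPM. Other members, and genes outside the run beyond the upstream ones, were named after their values were seen. The members and lists were chosen with earlier results of these data known. Alternatives covered the strand column, denominators, thresholds, TMM (edgeR 4.0.16) and DESeq2 1.42.0 size factors, and each replicate alone. Python 3.11.15, scipy 1.17.1, R 4.3.3 and RNAfold 2.7.2 were used.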

Additional observations from a re-analysis of the deposited data

How the results depend on the processing

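The run's share of 10.4% became 12.6% with the unstranded column, 3.60% of all reads in the files, 11.9% without the most abundant gene in the denominator, 4.93% with the 37 members that share under 18 nt with another hairpin or their own reverse strand, and 7.10% without Mir411. The last pair of settings, and the median below without 4 members, were chosen after seeing the data. It ranged from 9.69% to 11.2% with 1 replicate left out. With only the 38 members whose mature sequences occur at 1 place, it was 10.4%. That setting leaves out only Mir299b (8 and 17 reads) and genes with no RefSeq arm (at most 7 and 14 reads), so it could hardly change the share. The 3 most abundant members held 60.1% of the run's counts, and 67.2% with the unstranded column, where 5 members (Mir299a, Mir380, Mir376a, Mir539 and Mir409) fell under 1 CPM because their reads overlap a minus-strand gene and are ambiguous there; the range with 1 replicate left out was 58.3% to 62.0%. The 37 expressed members became 31 to 39 under the other settings. Of the 33 members compared, 28 were higher in replicate 2 with TMM and with DESeq2 size factors too. The median log2 ratio stayed positive in every setting tried, from 0.13 without the 4 members farthest apart to 0.23 at a mean of 100 CPM. Over 1.5-fold apart were 4 members, and 3 with TMM. No paired analysis was possible because there is 1 group. The members with 22 reads or fewer in each library have wide counting intervals, and p-values cannot be had from 1 library a side.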
